A study of Homo sapiens with 9 samples.

Results

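The histone genes described here are the protein-coding genes of the H1, H2A, H2B, H3 and H4 families whose symbols begin with H1-, H2AC, H2BC, H3C or H4C. They were measured by RNA sequencing of the human pancreatic cancer line SUIT2, an established culture, after IFN-β at 100 U/mL for 24 h (3 libraries), after the same dose for 6 h (3 libraries) and in control-treated cells (3 libraries). The study concerns metabolic changes that interferon signalling brings about in pancreatic cancer cells, and the libraries compare transcription at the 2 times with control. Of 70 such genes in the deposited table of 59609 genes, 46 had at least 10 estimated counts in at least 3 libraries, and these were taken as members, of which 45 are described. The 45 comprised 5 H1, 12 H2A, 13 H2B, 7 H3 and 8 H4 genes. The large cluster on chromosome 6p22 held 35 of them, the cluster on chromosome 1q21 held 9, and H1-10 on chromosome 3 lay outside the clusters. The highest count that at least 3 libraries reached, on which membership turned, was 12.1 for H2BC6 and 12.5 for H2BC13 just inside the limit, and 9.38 for H3C3 and 8.14 for H4C12 just outside it. The labels give no harvest time for the control cells and do not say that libraries of a group came from separate cultures. Time in culture and IFN-β exposure can therefore not be told apart, and the p-values below measure only the spread between these libraries, which may be technical.

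Core histones and linker histone H1 package DNA into nucleosomes. Most of their genes are replication-dependent: they sit in clusters, lack introns, are transcribed mainly in S phase, and give mRNAs that end in a conserved stem-loop in place of a poly(A) tail. The stem-loop is bound by SLBP, which guides 3′ processing, translation and rapid decay at the end of S phase. Some clustered genes can also give longer, polyadenylated transcripts that run past the stem-loop. H1-10 differs from the rest in that it gives polyadenylated mRNA and can be made outside S phase.

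The stem-loops below are shown because they are the element that sets clustered histone mRNAs apart, and because H2AC6 and H3C10, which were higher at 24 h, carry the same stem-loop letters as H3C14, which was lower. They were found in the coding transcripts of GENCODE v29 (GRCh38) by searching for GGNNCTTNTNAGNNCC on the gene's strand. Capitals mark the stem-loop and lower case its flanking bases.
H2AC6, chr6:26124669-26124684, plus strand: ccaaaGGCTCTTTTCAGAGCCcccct
H3C10, chr6:27810516-27810531, plus strand: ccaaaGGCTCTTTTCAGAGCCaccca
H3C14, chr1:149840692-149840707, minus strand: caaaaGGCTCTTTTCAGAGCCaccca
H2BC4, chr6:26123472-26123487, minus strand: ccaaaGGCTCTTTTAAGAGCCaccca
H2BC7, chr6:26199968-26199983, plus strand: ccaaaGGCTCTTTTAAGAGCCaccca
H4C8, chr6:26285131-26285146, minus strand: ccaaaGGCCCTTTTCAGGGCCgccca
H4C2, chr6:26026901-26026916, minus strand: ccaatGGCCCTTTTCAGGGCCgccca

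The search matched 24 of the 42 members that have a coding transcript in that annotation, against 110 of 19684 genes, or 0.559%, in all. The version shown for H2AC6, H3C10 and H3C14 occurred in 13 members, that of H2BC4 and H2BC7 in 3, and that of H4C8 and H4C2 in 4. H1-10 had no match. For 18 of the 24 members, at least 1 annotated transcript ran more than 100 bases past the stem-loop, as in H2AC6 (1114 bases), H3C10 (769 bases) and H3C14 (1154 bases). The annotated transcript of many unmatched members stops at or near the end of the coding region, so that a missing match says nothing about those genes. At 1507 bases, the annotated transcript of H1-10 was the longest of the unmatched members.

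Promoters were taken from RefSeq windows on GRCh38.p14, which matched 40 members. The 250 bases before the start are shown for 3 genes that were higher at 24 h: the bidirectional window of H2AC6, whose opposite strand serves H2BC4, that of H3C10, and that of H1-10 for contrast. Capitals mark matches on either strand to the TATA box TATAAA, to the box CCAAT, to the octamer ATTTGCAT bound by POU2F1, and to the interferon response core GAAANNGAAA.
H2AC6, chr6:26123922-26124171, plus strand: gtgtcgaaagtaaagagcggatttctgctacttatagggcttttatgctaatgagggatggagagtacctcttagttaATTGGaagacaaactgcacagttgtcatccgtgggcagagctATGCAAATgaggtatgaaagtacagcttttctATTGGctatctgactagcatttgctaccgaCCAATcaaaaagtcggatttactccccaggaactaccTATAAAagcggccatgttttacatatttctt
H3C10, chr6:27809801-27810050, plus strand: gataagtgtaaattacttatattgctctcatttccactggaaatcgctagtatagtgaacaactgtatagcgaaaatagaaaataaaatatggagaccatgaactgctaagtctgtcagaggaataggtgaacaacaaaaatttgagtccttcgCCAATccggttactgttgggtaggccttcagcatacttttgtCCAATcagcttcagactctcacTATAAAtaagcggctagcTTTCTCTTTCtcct
H1-10, chr3:129316287-129316536, minus strand: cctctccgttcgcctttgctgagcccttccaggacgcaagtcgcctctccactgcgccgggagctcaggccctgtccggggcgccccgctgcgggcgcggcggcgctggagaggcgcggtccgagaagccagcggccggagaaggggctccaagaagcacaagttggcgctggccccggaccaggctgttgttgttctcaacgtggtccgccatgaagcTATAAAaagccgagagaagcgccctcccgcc

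TATAAA stood 31 to 26 bases before the start in H2AC6 and H1-10 and 32 to 27 bases before it in H3C10. The octamer of H2AC6, read here on the opposite strand, stood 130 to 123 bases before the start. H3C10 had the interferon response core on the opposite strand, 14 to 5 bases before its start. Over the 40 windows, TATAAA was present in 28 (70.0%, against 3264 of all 27305 promoter windows), CCAAT in 33 (82.5%, against 35.7%) and the octamer in 18 (45.0%, against 1.80%). The octamer matches lay in 8 of 11 H2A and 10 of 13 H2B windows and in no H1, H3 or H4 window. Several H2A and H2B windows overlap, as in H2AC6 with H2BC4, so that the same site is counted in both. The interferon response core was found in 3 windows (7.5%, against 3.65% of all), those of H2BC6, H2BC11 and H3C10. These matches describe the letters of the windows and show no binding.

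The libraries held between 15101734 and 40384407 estimated counts, and the members described took between 0.0175% and 0.0313% of them together. All 45 members passed the filter on low counts, with 16964 genes tested. Levels are given as CPM, estimated counts per 1000000 of a library scaled with TMM factors, and are compared here between libraries, not between genes. Averaged over the 9 libraries, 18 members lay under 1 CPM and 20 between 1 and 5 CPM, so that most of them rest on few counts per library. Only H1-10 lay over 50 CPM. The interferon response check showed IFIT1, a classical interferon-induced gene, at 478 ± 9.22 CPM at 24 h, 1575 ± 35.3 CPM at 6 h and 7.21 ± 2.97 CPM in control cells (SD, n = 3 each). Epithelial markers of the line (KRT8, KRT18, KRT19, EPCAM, KRT7, MUC1 and CDH1) were all detected. The leukocyte markers PTPRC, CD3E, CD3D, MS4A1 and NKG7 (5 of 10 on that list) and the stromal and acinar markers DCN and CPA1 (2 of 10) were listed at 0 in every library. The summed level of the leukocyte list, nearly all of it LYZ, was 318 to 341 CPM at 24 h, 254 to 268 CPM at 6 h and 225 to 239 CPM in control cells. That of the stromal, endothelial and acinar list was 2.86 to 3.26 CPM at 24 h, 2.76 to 2.86 CPM at 6 h and 2.02 to 2.87 CPM in control cells. The part of these markers in the histone results was not tested.

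At 24 h against control, the histone genes split. The linker histone gene H1-10 rose, and so did the clustered genes H2AC6 and H3C10, while 11 clustered members fell and 31 of 45 members did not pass the test. With the quasi-likelihood test of edgeR, adjusted over all 16964 genes by Benjamini-Hochberg at 0.05, 3 of 45 members (6.67%) were higher, where 24.7% of all genes tested were, and 11 of 45 (24.4%) were lower, where 25.3% of all genes tested were. The share that fell was thus near that of all genes, and the share that rose was below it. The 11 that fell include H3C14 and H3C15, which carry identical counts. The median log2 fold change of the members was −0.40, against 0.005 over all genes tested, and 32 of the 44 clustered members lay below 0.

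H1-10 had 153, 146 and 155 CPM at 24 h, 84.2, 86.7 and 75.8 CPM at 6 h, and 97.8, 93.0 and 96.8 CPM in control cells. It was highest at 24 h and lowest at 6 h, with no overlap between any of the groups. The rise at 24 h against control was 1.58-fold (log2 0.66, SE 0.045, adjusted p = 7.8e-09, edgeR), and it held in all 17 alternative fits. H1-10 shares part of its span, chr3:129314771-129316287 on hg38, with the antisense gene H1-10-AS1. Whether reads were counted by strand is not stated in the labels, so that reads of the pair cannot be told apart.

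The clustered H1 genes did not follow. H1-2, the clustered linker histone with the highest counts, had 14.5, 13.4 and 13.3 CPM at 24 h, 17.3, 13.4 and 12.4 CPM at 6 h, and 13.3, 13.9 and 14.6 CPM in control cells. Its groups overlapped, and neither H1-2, H1-3, H1-4 nor H1-5 passed the test in any of the 3 comparisons.

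**Figure D1:**
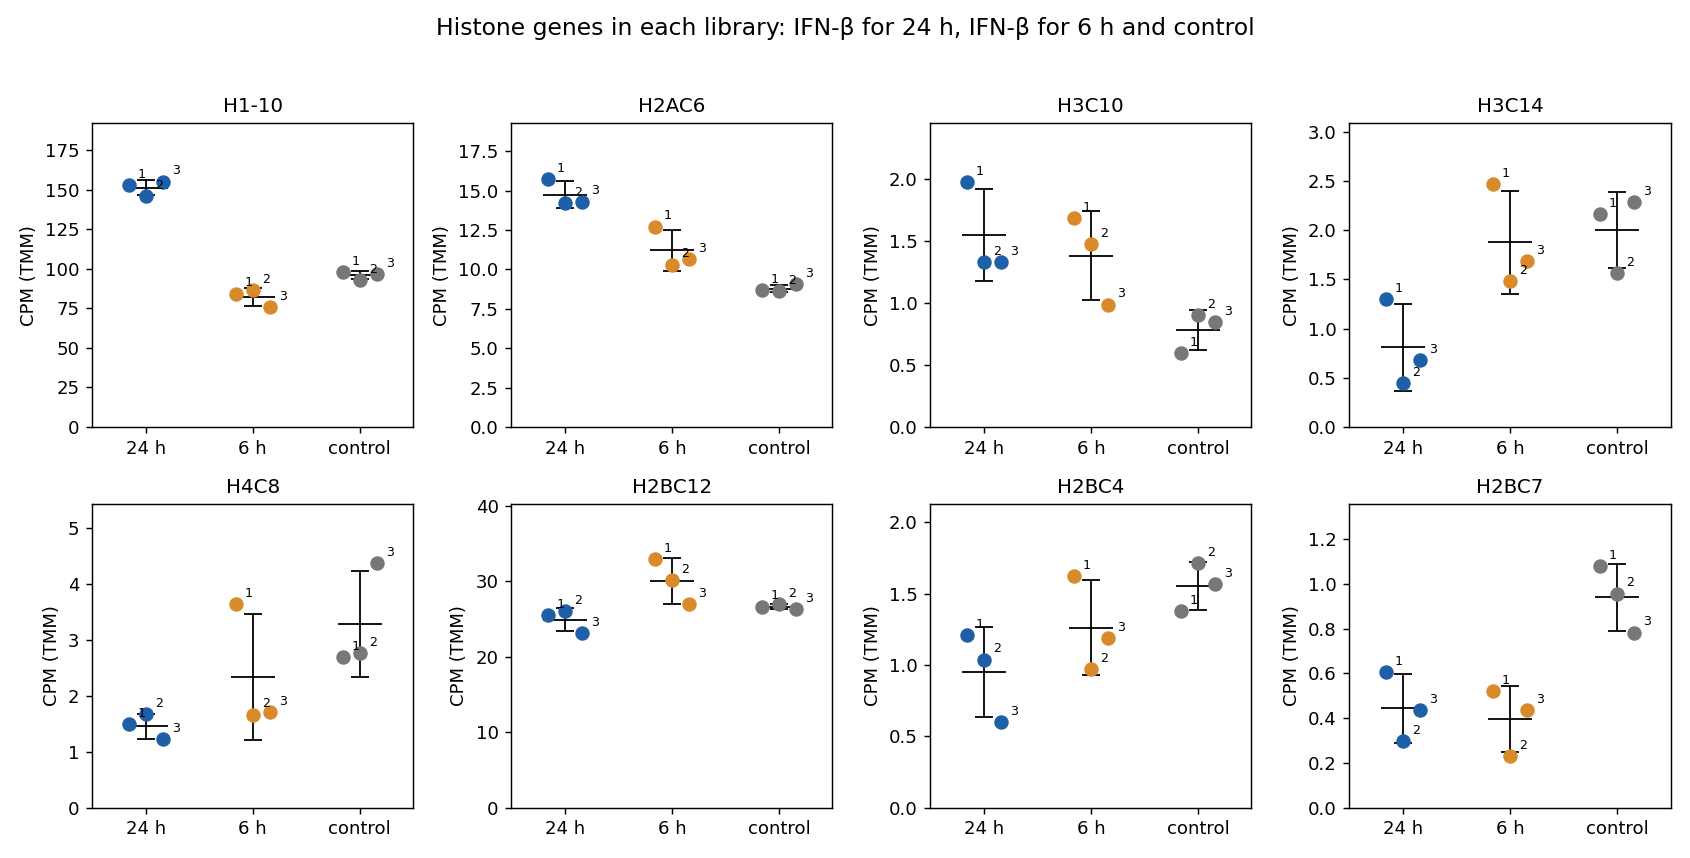
CPM with TMM factors (y axis, from 0) of 8 histone genes in each library of SUIT2 cells, for IFN-β at 24 h, IFN-β at 6 h and control (x axis). Points are libraries, numbered as in the sample titles, and black bars show mean ± SD (n = 3). H1-10 and H2AC6 stand highest at 24 h in all 3 libraries, while H3C14 and H4C8 stand below every control library at 24 h.

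Among the H2A genes, H2AC6 is a clustered gene with an annotated transcript that runs past its stem-loop. H2AC6 had 15.7, 14.2 and 14.3 CPM at 24 h, 12.7, 10.3 and 10.6 CPM at 6 h, and 8.69, 8.61 and 9.06 CPM in control cells. Each group stood apart from the others, in the order 24 h, 6 h, control. It rose 1.68-fold at 24 h against control (log2 0.75, SE 0.087, adjusted p = 3.15e-06, edgeR), in all 17 alternative fits. H2AC18 and H2AC19 are near-identical copies whose deposited counts stood in a constant ratio of 3.75 in every library, so their values are 1 measurement split by the counting. H2AC18 had 8.55, 6.48 and 6.00 CPM at 24 h, 7.98, 5.78 and 5.64 CPM at 6 h, and 5.82, 5.64 and 7.17 CPM in control cells, with overlap between all groups. H2AC12 fell to 0.604, 0.333 and 0.489 CPM at 24 h, against 0.959, 1.41 and 1.11 CPM in control cells (log2 −1.25, SE 0.446, adjusted p = 0.0298, edgeR). H2AC12 had 1.30, 0.277 and 0.290 CPM at 6 h, a range that overlapped both other groups. H2AC17 was also lower at 24 h (log2 −1.19, adjusted p = 0.0320, edgeR). Its span overlaps that of H3C12 on the same strand, and reads of the shared stretch cannot be told apart.

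Of the 13 H2B genes, none rose and 4 fell at 24 h against control, H2BC4, H2BC7, H2BC11 and H2BC15, where 24.7% of all genes tested rose and 25.3% fell. The annotated span of H2BC15 contains that of H2AC16 on the same strand, and reads of the shared stretch cannot be told apart. H2BC7 had 0.604, 0.296 and 0.434 CPM at 24 h, 0.519, 0.231 and 0.436 CPM at 6 h, and 1.08, 0.957 and 0.782 CPM in control cells. Both treated groups lay below every control library, and the log2 fold change at 24 h against control was −1.03 (SE 0.340, adjusted p = 0.0204, edgeR). H2BC4 had 1.21, 1.04 and 0.597 CPM at 24 h, 1.62, 0.970 and 1.19 CPM at 6 h, and 1.38, 1.71 and 1.56 CPM in control cells (24 h against control log2 −0.71, SE 0.279, adjusted p = 0.0462, edgeR). H2BC12, the H2B gene with the most counts, had 25.5, 26.1 and 23.2 CPM at 24 h, 33.0, 30.2 and 26.9 CPM at 6 h, and 26.6, 27.0 and 26.3 CPM in control cells. It did not pass at 24 h against control (log2 −0.10, adjusted p = 0.258, edgeR). H2BC5 had 5.58, 6.26 and 5.89 CPM at 24 h, 5.71, 5.18 and 4.33 CPM at 6 h, and 5.10, 5.19 and 6.32 CPM in control cells, and passed in no comparison.

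Among the H3 genes, H3C14 and H3C15 carried identical deposited counts in every library. They are 1 measurement, although the counts of members include both. They had 1.30, 0.445 and 0.679 CPM at 24 h, 2.47, 1.48 and 1.68 CPM at 6 h, and 2.16, 1.56 and 2.28 CPM in control cells. The 24 h libraries all lay below the libraries of both other groups. The log2 fold change at 24 h against control was −1.22 (SE 0.324, adjusted p = 0.00553, edgeR), and it held in all 17 alternative fits. In estimated counts this was 56.4, 11.6 and 25.4 at 24 h, against 35.7, 31.3 and 34.5 in the control libraries, which were sequenced less deeply. The annotated span of H3C14 overlaps that of H4C14 on the other strand, and that of H3C15 overlaps H4C15. Whether the counts of these genes share reads was not tested. H3C10 moved the other way, with 1.98, 1.33 and 1.33 CPM at 24 h, 1.69, 1.48 and 0.988 CPM at 6 h, and 0.599, 0.906 and 0.848 CPM in control cells. All treated libraries lay above all control libraries, and H3C10 was 1.98-fold higher at 24 h against control (log2 0.99, SE 0.285, adjusted p = 0.00947, edgeR). This call was lost without 24 h library 1, where the log2 fold change was 0.75 (adjusted p = 0.0606, edgeR). H3C6 had 1.60, 1.78 and 1.33 CPM at 24 h, 1.62, 2.31 and 1.92 CPM at 6 h, and 1.92, 1.76 and 1.04 CPM in control cells, and passed in no comparison.

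Among the H4 genes, 3 of 8 fell at 24 h against control and none rose, where 25.3% of all genes tested fell and 24.7% rose. H4C8 had 1.49, 1.67 and 1.22 CPM at 24 h, 3.63, 1.66 and 1.71 CPM at 6 h, and 2.70, 2.77 and 4.37 CPM in control cells. Every 24 h library lay below every control library, and the log2 fold change was −1.16 (SE 0.276, adjusted p = 0.0025, edgeR), in all 17 alternative fits. H4C2 had 0.395, 0.148 and 0.190 CPM at 24 h, 0.714, 0.139 and 0.203 CPM at 6 h, and 0.540, 0.654 and 1.11 CPM in control cells (24 h against control log2 −1.54, SE 0.520, adjusted p = 0.0227, edgeR). H4C1 had 0.790, 0.593 and 0.760 CPM at 24 h, 0.909, 0.601 and 0.523 CPM at 6 h, and 1.32, 1.11 and 1.11 CPM in control cells, with both treated groups below the control range. The H4 genes with the most counts, H4C14 and H4C15, did not pass in any comparison. Their promoter windows and stem-loops hold the same letters. How reads were divided between them was not tested, and their values may not be separate measurements. Their summed level was not tested. H4C14 had 14.5, 13.9 and 7.74 CPM at 24 h, 13.5, 14.7 and 15.7 CPM at 6 h, and 13.8, 13.7 and 11.7 CPM in control cells. H4C15 had 3.35, 2.63 and 6.03 CPM at 24 h, 7.07, 5.41 and 4.33 CPM at 6 h, and 3.78, 2.37 and 4.89 CPM in control cells. At 24 h, library 3 was the lowest of its group for H4C14 and the highest for H4C15.

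**Figure D2:**
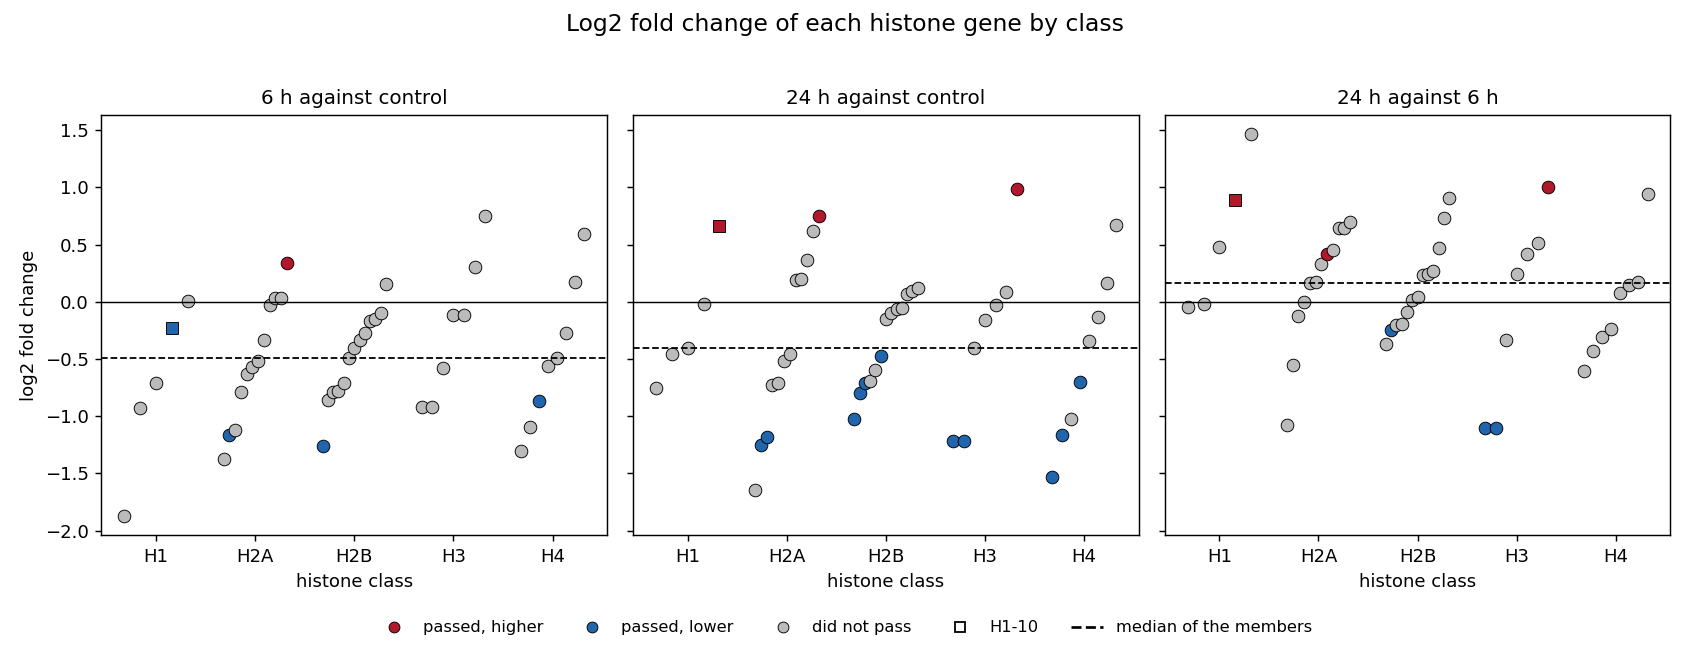
Log2 fold change (y axis) of the 45 histone genes by class (x axis) in the 3 comparisons, with genes ordered by value within a class. Red and blue points passed edgeR's test at an adjusted p of 0.05, grey points did not, the square is H1-10, and the dashed line is the median of the members (−0.50, −0.40 and 0.16 from left to right, with all libraries).

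Most calls of low-count members that fell did not hold with 1 library fewer. The calls of H2AC12, H2AC17, H2BC11, H2BC15, H2BC7, H2BC4, H4C1 and H4C2 at 24 h against control were each lost when 1 of several libraries was left out, which gave adjusted p values from 0.0573 to 0.193 (edgeR). Leaving out 24 h library 2 or 3 ended the call of all 8 genes, and leaving out control library 3 that of all but H2BC7. H2AC17, H2BC15 and H4C1 also lost it without 24 h library 1, H2BC4, H2BC7 and H4C1 without control library 1, and all but H4C2 without control library 2. Under these settings the log2 fold changes ranged from −1.28 to −1.07 for H2AC12, from −1.22 to −1.08 for H2AC17 and from −1.36 to −1.21 for H4C2. They ranged from −0.44 to −0.36 for H2BC11, from −0.84 to −0.55 for H2BC15, from −0.79 to −0.46 for H2BC4, from −1.02 to −0.84 for H2BC7 and from −0.78 to −0.60 for H4C1. The count of members lower at 24 h was 4 without control library 2 or 3, 3 without 24 h library 2 or 3, and 6 with DESeq2. H1-10, H2AC6, H3C14 with H3C15, and H4C8 kept their calls without any library.

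At 6 h against control, few histone genes passed. H2AC6 was higher (1 of 45, or 2.22%, where 17.5% of all genes tested were higher), and H1-10, H2AC13, H2BC7 and H4C1 were lower (4 of 45, or 8.89%, where 15.4% of all genes tested were lower). The fold changes were small for the genes with many counts. H2AC6 rose 1.26-fold (log2 0.34, SE 0.093, adjusted p = 0.0116, edgeR) and H1-10 fell by 0.23 on the log2 scale (SE 0.048, adjusted p = 0.00171, edgeR). H2BC7 (log2 −1.26, SE 0.375, adjusted p = 0.0173, edgeR) and H4C1 (log2 −0.87, SE 0.290, adjusted p = 0.0320, edgeR) fell more, at far lower counts. H2AC13 had 0.860, 0.445 and 0.407 CPM at 24 h, 0.454, 0.601 and 0.290 CPM at 6 h, and 0.719, 1.01 and 1.17 CPM in control cells (6 h against control log2 −1.16, SE 0.407, adjusted p = 0.0395, edgeR). No 6 h library of these 3 genes reached the control range. Their calls too were lost when 1 library was left out. Without it the log2 fold change was −1.18 to −0.84 for H2AC13 (control library 2 or 3, or 6 h library 1 or 3), −1.24 to −1.01 for H2BC7 (control library 1 or 2, or 6 h library 2) and −0.91 to −0.67 for H4C1 (any control library, or 6 h library 2 or 3). The calls of H1-10 and H2AC6 were also lost in another fit. With limma on the authors' normalized values, where the median of all genes moved by 0.13 on the log2 scale, neither passed. Their log2 values there were −0.06 and 0.46 at a pseudocount of 1. Both the scaling and the test differ in that fit, and the cause of the lost calls was not tested. H2AC6 also missed with library size as the only scaling, at a log2 fold change of 0.20 (adjusted p = 0.0967, edgeR).

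The median log2 fold change of the members at 6 h was −0.50, against −0.005 over all genes, and 36 of 45 members lay below 0. In the authors' normalized values with a pseudocount of 1 this median was −0.13, against 0.13 over all genes. It was 0.0031 there at 24 h against control, against 0.37 over all genes, so that the sign of the members' median at 24 h turned in that alternative while it stayed below that of all genes. The members' median minus that of all genes was −0.41 in the TMM scaling and −0.37 in the authors' values. Leaving out 1 library moved these medians, in part by over 1.5 times. At 6 h against control the members' median was −0.86 without 6 h library 1, −0.27 without 6 h library 2, −0.28 without 6 h library 3 and −0.33 without control library 3, against −0.67 without control library 1 and −0.40 without control library 2. Their median at 24 h against control was −0.20 without control library 3, −0.23 without control library 2, −0.25 without 24 h library 3 and −0.28 without 24 h library 2, against −0.57 without control library 1 and −0.58 without 24 h library 1. All of these lay below the median of all genes.

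Between the times, 3 of 45 members (6.67%) were higher at 24 h than at 6 h, where 26.6% of all genes tested were, and 3 of 45 (6.67%) were lower, where 30.6% of all genes tested were. The median of the members was 0.16, but its sign turned without some of the libraries: it was −0.05 without 6 h library 3, −0.02 without 24 h library 1, 0.04 without 6 h library 2 and 0.47 without 6 h library 1. H1-10 was 1.85-fold higher at 24 h (log2 0.89, SE 0.044, adjusted p = 1.56e-10, edgeR) and H2AC6 was 1.33-fold higher (log2 0.42, SE 0.0795, adjusted p = 0.000362, edgeR). H3C12 had 0.813, 0.852 and 0.380 CPM at 24 h, against 0.260, 0.370 and 0.349 CPM at 6 h, with 0.480, 0.654 and 0.782 CPM in control cells. Its difference between the times was 1.01 on the log2 scale (SE 0.382, adjusted p = 0.0350, edgeR), and it was lost without any 6 h library or without 24 h library 1 or 2, at log2 values of 0.82 to 1.08. H2BC12 was lower at 24 h than at 6 h (log2 −0.25, SE 0.066, adjusted p = 0.00423, edgeR), but this call rested on the scaling: the difference was −0.03 with library size only (adjusted p = 0.671, edgeR) and 0.01 in the authors' normalized values, and passed in neither. H3C14 with H3C15 was lower at 24 h than at 6 h (log2 −1.10, SE 0.314, adjusted p = 0.00738, edgeR). Both are among the 3 lower members, although their counts are identical.

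Libraries of the same group differed in the clustered members, and they differed together. Summed over the 44 clustered members, the level was 141, 121 and 115 CPM in the 24 h libraries, 169, 118 and 114 CPM in the 6 h libraries, and 126, 136 and 154 CPM in the control libraries. The sum averaged 126 ± 13.4 CPM at 24 h, 134 ± 30.8 CPM at 6 h and 139 ± 13.8 CPM in control cells (SD, n = 3 each), so that the groups' sums overlapped. Of the 24 h libraries, library 1 held the highest value of its group for 33 of the 44 members, 6 h library 1 for 39, and control library 3 for 32. The same libraries were highest of their group in small nuclear RNAs, which also lack a poly(A) tail: the summed level of genes annotated as snRNA was 20.6, 8.74 and 7.85 CPM at 24 h, 12.9, 4.02 and 7.12 CPM at 6 h, and 10.9, 11.7 and 16.6 CPM in control cells. Of a list of 18 named RNAs without a poly(A) tail, 7 were tested: 3 were higher (where 24.7% of all genes tested were) and none lower at 24 h against control (median log2 fold change 1.64), and none passed at 6 h. Most of its level came from RN7SL genes, and it summed to 735, 475 and 472 CPM at 24 h, 92.1, 568 and 439 CPM at 6 h, and 313, 174 and 150 CPM in control cells. The order of the libraries was thus another one: this list was highest in 24 h library 1, 6 h library 2 and control library 1, and lowest at 6 h in library 1. Genes annotated as snoRNA or scaRNA were highest in 24 h library 1, 6 h library 1 and control library 1. Those annotated as rRNA were highest in 24 h library 1, 6 h library 1 and control library 3, as the clustered members were. They summed to 114, 3.78 and 4.86 CPM at 24 h, 9.60, 6.33 and 3.49 CPM at 6 h, and 8.93, 6.49 and 9.39 CPM in control cells. H1-10 was highest of its group in none of 24 h library 1, 6 h library 1 and control library 3, by the values given above. How the libraries were enriched, by poly(A) selection or by removal of ribosomal RNA, is not stated in the labels, and the part of this spread in the histone results was not tested. Fewer cells in S phase and less histone mRNA per cell cannot be told apart in bulk RNA.

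**Figure D3:**
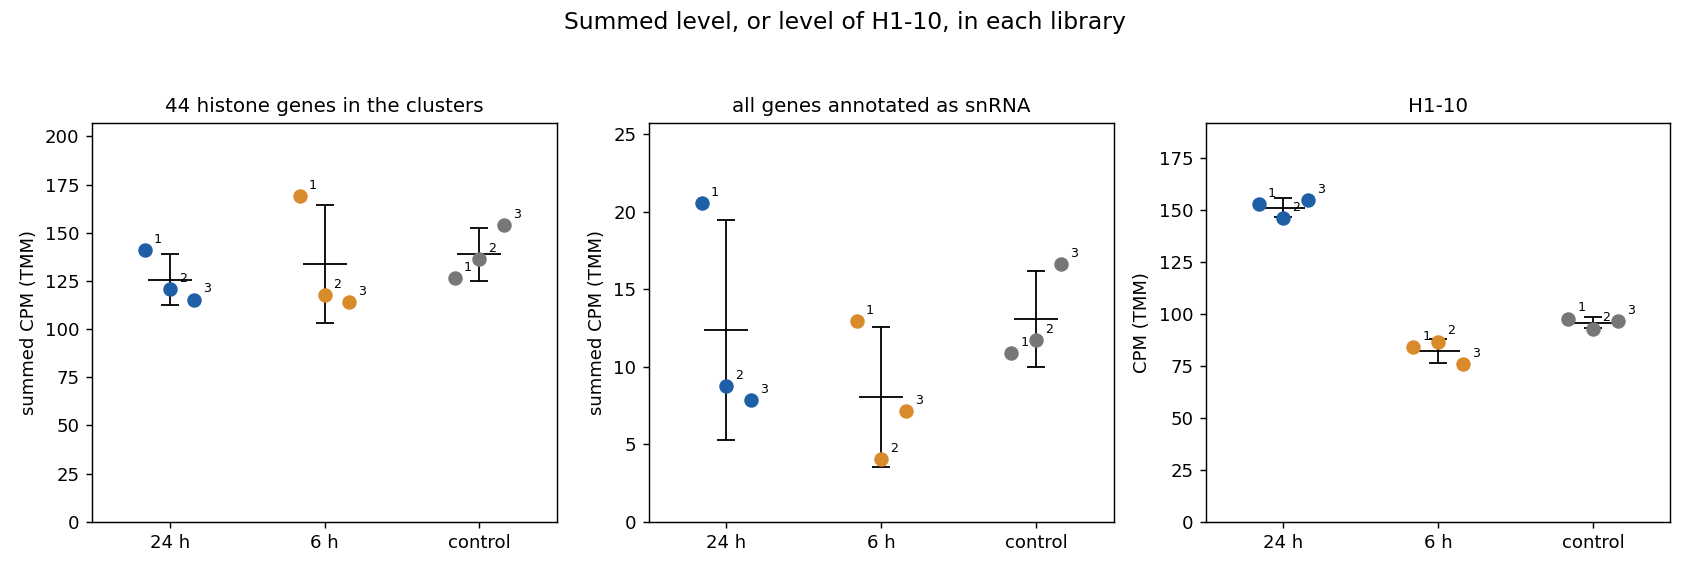
Summed CPM with TMM factors (y axes, from 0) in each library for IFN-β at 24 h, IFN-β at 6 h and control (x axis), of the 44 clustered histone genes, of all genes annotated as snRNA, and CPM of H1-10. Numbered points are libraries and bars show mean ± SD (n = 3). The 24 h library 1, 6 h library 1 and control library 3 are highest of their group in the left and middle panels, while the libraries of a group lie close together in the right one.

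Without these 3 libraries, an alternative chosen after the data were seen that leaves 2 libraries a group, 43 of the members could be tested, all but H1-3 and H2AC7. The libraries left out were also highest of their group in the clustered members, so that the choice was not independent of the levels compared. The shares that follow describe these fits and are no test of the members. At 6 h against control 16 of the 43 (37.2%) were lower, where 10.4% of all genes tested in that fit were, in place of 4 with all libraries. Of those 4, 3 were among the 16. None was higher, where 13.4% of all genes were, and H2AC6 no longer passed (log2 0.28, adjusted p = 0.0573, edgeR). The 16 were H1-10, H1-4, H1-5, H2AC8, H2AC11, H2AC12, H2AC16, H2AC17, H2BC7, H2BC8, H2BC15, H2BC17, H4C1, H4C2, H4C5 and H4C8. Of these, H2AC16 lies within the span of H2BC15 on the same strand, so they may not be separate measurements. H4C5, for example, had 1.44, 1.15 and 1.87 CPM at 24 h, 4.09 CPM in 6 h library 1 but 0.508 and 0.552 CPM in 6 h libraries 2 and 3, and 1.68, 3.47 and 4.04 CPM in control cells. Its log2 fold change at 6 h was −2.28 without those libraries and −1.10 with all of them. Leaving out 6 h library 1 alone gave 17 of 45 members lower (37.8%, where 13.1% of all genes tested were), and leaving out any other library gave 1 to 4. The members called at 24 h against control without the 3 libraries were 2 higher (4.65%, where 19.5% of all genes were) and 10 lower (23.3%, where 20.0% of all genes were), with H3C10, H2BC15 and H4C1 lost and H1-5 gained. Against 6 h, 8 members were higher at 24 h (18.6%, where 21.9% of all genes were) and 4 were lower (9.30%, where 26.3% of all genes were) without them, and 11 were higher without 6 h library 1 alone (24.4%, where 24.3% of all genes were).

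Of the clustered members with a promoter window, 7 pairs of an H2A and an H2B gene point away from each other. They share most of their windows, between 253 and 278 bases of them, a layout in which the shared stretch can serve both genes. H2AC12 and H2BC12 also point away from each other, but no window matched H2AC12, so this pair was not counted. Their log2 fold changes were −1.12 and 0.15 at 6 h and −1.25 and −0.10 at 24 h against control. Of these, only H2AC12 at 24 h passed. In the pair of H2AC6 and H2BC4, whose shared window is shown above, H2AC6 rose and H2BC4 fell at 24 h against control. In the other pairs of the 7, the fold changes at 6 h of both genes lay below 0, as in H2AC7 with H2BC7 (log2 −0.57 and −1.26) and H2AC8 with H2BC8 (log2 −0.79 and −0.86). The same held at 24 h against control in all of them but H2AC20 with H2BC21, where the log2 fold changes were 0.37 and −0.15 and neither gene passed. H2BC7 at both times, H2AC13 at 6 h, and H2AC17 and H2BC11 at 24 h were the genes of those pairs that passed.

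**Figure D4:**
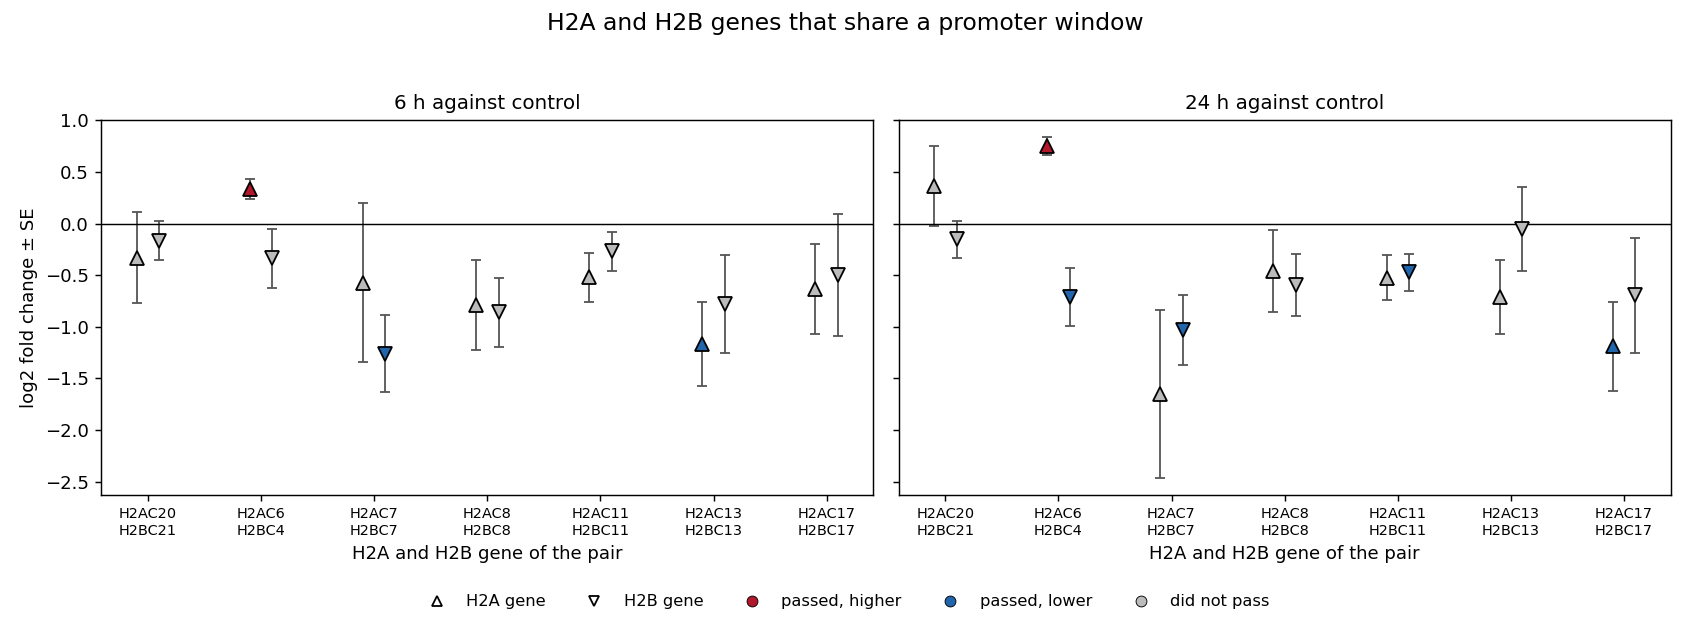
Log2 fold change ± SE (y axis) at 6 h (left) and 24 h (right) against control for the H2A gene (upward triangle) and the H2B gene (downward triangle) of 7 pairs that share a promoter window (x axis). Red and blue passed edgeR's test at an adjusted p of 0.05 and grey did not. H2AC6 with H2BC4 is the pair in which the genes passed in opposite directions.

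Genes of S phase entry and DNA replication, during which the clustered genes are transcribed, mostly rose at 24 h. Of 34 such genes, 28 were higher and 3 lower at 24 h against control, with a median log2 fold change of 0.44, against 0.005 over all genes, whereas 5 were higher and 6 lower at 6 h. Of all genes tested, 24.7% were higher and 25.3% lower at 24 h, and 17.5% and 15.4% at 6 h. The G1/S cyclin CCNE2 was at 28.2 ± 0.308 CPM at 24 h, 11.6 ± 0.805 CPM at 6 h and 12.7 ± 1.53 CPM in control cells (SD, n = 3 each), with log2 1.14 at 24 h against control (adjusted p = 3.16e-09, edgeR). CCNE1, another G1/S cyclin (log2 0.64), the primase subunit PRIM1 (0.95) and the transcription factor E2F2 (0.99) rose with it at 24 h. At 6 h CCNE1 and E2F2 were lower (−0.41 and −0.82).

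Genes for histone mRNA synthesis and processing, like all genes tested, moved in both directions. Of 23 such genes, 8 were higher and 7 lower at 24 h against control, and at 6 h 1 was higher and 2 lower. The shares of all genes tested were 24.7% higher and 25.3% lower at 24 h, and 17.5% and 15.4% at 6 h. SLBP, which binds the stem-loop, had 82.5, 85.3 and 84.4 CPM at 24 h, 68.1, 69.3 and 68.5 CPM at 6 h, and 64.0, 69.2 and 63.0 CPM in control cells. It was higher at 24 h in all 3 libraries than in any other (24 h against control log2 0.36, SE 0.038, adjusted p = 1.39e-06, edgeR). NPAT, the cyclin E-CDK2 substrate that activates clustered histone genes, was higher at 24 h by 0.48 on the log2 scale (adjusted p = 5.06e-06, edgeR). CASP8AP2, also known as FLASH and needed for 3′ processing, rose by 0.66, and SYMPK, a scaffold of the cleavage complex, by 0.46. Of the 7 lower genes, ZNF473, which binds the U7 snRNP of the 3′ processing machinery, had a log2 fold change of −0.35 and the transcription factor YY1 one of −0.25. SLBP and NPAT did not pass at 6 h, with log2 values of 0.07 and 0.06.

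Of 11 genes for histone mRNA decay, 3 were higher and 2 lower at 6 h against control, and 4 higher and 3 lower at 24 h. Over all genes tested, 17.5% were higher and 15.4% lower at 6 h, and 24.7% and 25.3% at 24 h. XRN1, the cytoplasmic 5′ to 3′ exonuclease, was at 42.2 ± 1.16 CPM at 24 h, 222 ± 21.7 CPM at 6 h and 34.2 ± 0.792 CPM in control cells (SD, n = 3 each). It was 6.51-fold higher at 6 h (adjusted p = 1.16e-14, edgeR) and 1.23-fold higher at 24 h (adjusted p = 0.00191, edgeR) than in control cells. TUT4, a uridylyltransferase, was lower at 6 h (−0.23) and higher at 24 h (0.23). The kinases ATR and PRKDC, which respond to replication stress and DNA breaks, were lower at 24 h (−0.22 and −0.69), and ATR was higher at 6 h (0.19, adjusted p = 0.00691, edgeR).

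CHAF1A (log2 0.64) and CHAF1B (0.71), subunits of chromatin assembly factor 1, which brings new histones to replicating DNA, were higher at 24 h. HIRA, which deposits H3.3 outside S phase, was higher at 6 h (0.82) and not at 24 h (0.05), and HJURP, the chaperone of CENPA, was lower at 24 h (−0.69). In all, 9 of 21 chaperone and assembly genes were higher and 4 lower at 24 h, against 6 higher and 4 lower at 6 h. For all genes tested the shares were 24.7% higher and 25.3% lower at 24 h, and 17.5% and 15.4% at 6 h.

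A further list held replacement histones and variants, H1-10, and also H2BU1 and H4-16, formerly named HIST3H2BB and HIST4H4. Of its 13 tested genes, 3 were higher and 8 lower at 24 h against control, and 2 were higher and 3 lower at 6 h. Among all genes tested, 24.7% were higher and 25.3% lower at 24 h, and 17.5% and 15.4% at 6 h. H2AJ, an H2A gene outside the clusters, was at 77.8 ± 1.88 CPM at 24 h, 36.7 ± 1.03 CPM at 6 h and 36.3 ± 0.897 CPM in control cells (SD, n = 3 each), which gave a log2 fold change of 1.10 at 24 h against control. H2BU1, an H2B gene with few counts, was 2.84-fold higher at 24 h as well (adjusted p = 0.00413, edgeR). CENPA, the H3 variant of centromeres, was lower at 24 h (log2 −0.71). H2AX, the variant phosphorylated at DNA breaks, had a log2 fold change of −0.47 at 24 h and H2AZ1, a variant found at promoters, one of −0.21, and both passed. Neither passed at 6 h, with −0.09 and −0.05.

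**Figure D5:**
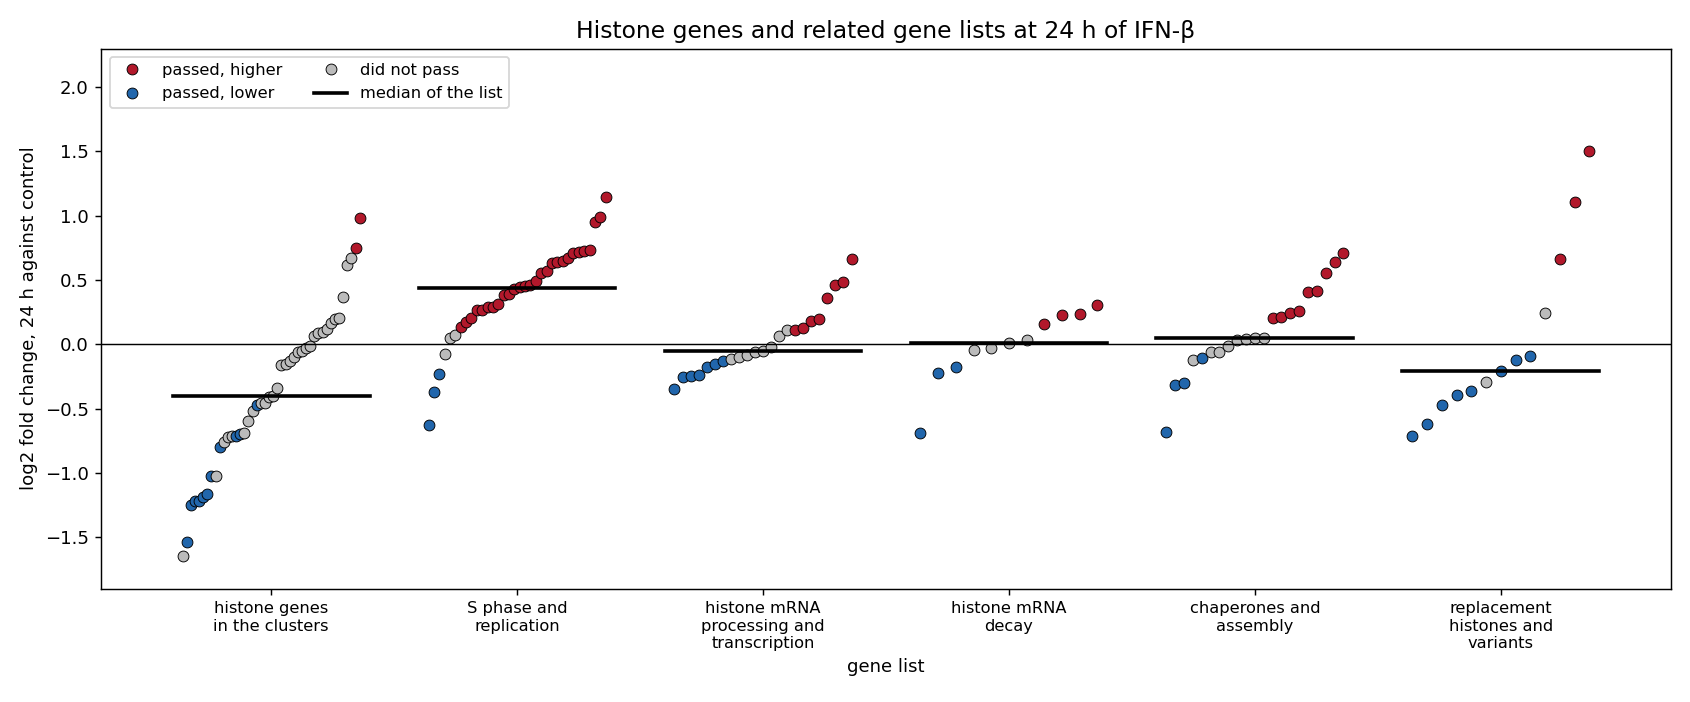
Log2 fold change at 24 h of IFN-β against control (y axis) of the 44 clustered histone genes and of 5 lists of related genes (x axis), ordered by value within each list. Red and blue points passed edgeR's test at an adjusted p of 0.05, grey points did not, and black lines are the medians, −0.41 for the clustered histone genes and 0.44 for the S phase list.

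Other genes also lie within the histone gene spans, chr6:26021649-27893892 and chr1:149782689-149887412. Of 13 tested, 6 were higher and none lower at 6 h against control, and 7 were higher and 1 lower at 24 h. Across all genes tested, 17.5% were higher and 15.4% lower at 6 h, and 24.7% and 25.3% at 24 h. The butyrophilins BTN3A1, BTN3A2 and BTN3A3, ligands for a class of gamma delta T cells, had log2 fold changes of 2.31, 2.37 and 2.37 at 24 h and 3.63, 2.25 and 3.17 at 6 h, and passed at both times. AL031777.2, which overlaps H2AC7, was higher at 24 h (1.86) at few counts.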

How the data were processed

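The authors deposited estimated counts per gene for 9 libraries of SUIT2 cells. Reads were mapped with STAR 2.7.8a to hg38 within Partek, per the submitters' processing notes. The authors also deposited TMM-normalized values per gene, a signal with a small constant added per the file's name, used here only in an alternative. Estimated counts were rounded and tested with edgeR 4.0.16 (quasi-likelihood, TMM factors, 3 groups fitted together, R 4.3.3) after its filter at a minimum count of 10, which left 16964 genes, with Benjamini-Hochberg adjustment at 0.05. Alternatives were DESeq2 1.42.0, limma 3.58.1 on the authors' values, other scalings, filters and thresholds, a replicate block, single libraries left out and copies with tied counts summed. The last of these, and leaving out the libraries highest in snRNA, were chosen after the data were seen. Of 46 members, 1 is not reported here. Members and gene lists were chosen with earlier results of these data known. Values in every library are given for the 2 members of each class with the highest mean CPM, for up to 3 called members with the largest fold change in each direction and comparison, and for H1-10; from each other list up to 4 called genes are named. H4C8, H2BC4, H4C5, ZNF473 and YY1 were named after their values were seen. The test was checked on simulated counts. Intervals and floors for counting error were not computed.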

Additional observations from a re-analysis of the deposited data

Results flagged for a closer look

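For 6 members the effects at 24 h and at 6 h differed by the edgeR test of the difference between the times, for which the control libraries cancel out. The log2 difference, 24 h minus 6 h, was 0.89 for H1-10, 0.42 for H2AC6 and 1.01 for H3C12. It was −0.25 for H2BC12 and −1.10 for both H3C14 and H3C15, whose counts are identical. H1-10 stood above control at 24 h and below it at 6 h.

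Outside the histone genes, some libraries held more of other RNAs than any control library. Genes annotated as rRNA summed to 114 CPM in 24 h library 1 and to 9.60 CPM in 6 h library 1, against 6.49 to 9.39 CPM in the control libraries. Genes annotated as snRNA summed to 20.6 CPM in 24 h library 1, against 10.9 to 16.6 CPM in the control libraries. With 3 libraries a group, single libraries were not tested as outliers.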

How the results depend on the processing

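Depth limited the members with few counts: the median standard error of the log2 fold change at 24 h against control was 0.45 for the 18 members under 1 CPM, 0.30 for the 20 between 1 and 5 CPM and 0.099 for the 7 at 5 CPM and over. Of the members called at 24 h against control, H1-10, H2AC6, H3C14, H3C15 and H4C8 kept their calls in every alternative in which they could be tested. In the rest of this paragraph, the cause of a moved value was not tested. At 6 h against control, the count of members higher (1) was 0 at a threshold of 0.01, 0 with library size only, 3 with no low-count filter, 0 without the library highest in snRNA of each group and 2 in the authors' values (limma), and that of members lower (4) was 1 at 0.01, 12 with library size only, 15 with no filter, 16 without the snRNA-highest libraries, 2 with at least 1 CPM in 3 libraries and 1 with DESeq2. Where edgeR called 0 members higher at 6 h, 2 at a threshold of 0.01, 0 with library size only and 1 without the snRNA-highest libraries had an unadjusted p under 0.05, and DESeq2 called 1. At 24 h against control, members higher (3) numbered 11 and 10 in the authors' normalized values (pseudocounts 1 and 0.1), and members lower (11) numbered 7 and 6 there, 3 at 0.01, 7 with library size only and 6 with DESeq2. At 24 h against 6 h, members higher (3) numbered 9 with library size only, 6 with no filter, 8 without the snRNA-highest libraries and 9 and 10 in the authors' values, and members lower (3) numbered 7 with no filter. Over all genes, library size only gave 1669 higher and 6192 lower at 6 h (2968 and 2608 in the main test), and 8229 higher and 2475 lower at 24 h against 6 h (4520 and 5184). The authors' values gave 1615 and 1621 higher and 211 and 233 lower at 6 h, 8575 and 8398 higher and 321 and 319 lower at 24 h against control (4191 and 4284), and 975 and 941 lower at 24 h against 6 h. A threshold of 0.01 left 1646 lower at 6 h. With library size only, the log2 ratio of the H1-10 level was −0.36 at 6 h and 0.74 at 24 h against control and 1.10 at 24 h against 6 h (−0.22, 0.66 and 0.88 with TMM factors), and that of the summed clustered H4 genes at 24 h against 6 h was −0.0675 (−0.28 with TMM factors).

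With single libraries left out, members higher and lower numbered 1 to 3 and 1 to 17 at 6 h, 2 to 3 and 3 to 11 at 24 h against control, and 2 to 11 and 3 to 4 at 24 h against 6 h. Over all genes they numbered 2610 to 2953 and 2051 to 2536, 3705 to 3858 and 3792 to 3894, and 4037 to 4268 and 4810 to 5085.

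Signs turned for members near 0. H1-2 was −0.13 at 6 h with library size only and −0.0883 without the snRNA-highest libraries. At 24 h against control it was 0.0613 with library size only, 0.0044 with no filter and 0.39 and 0.41 in the authors' values, and at 24 h against 6 h it was 0.20 with library size only, 0.0578 without the snRNA-highest libraries and 0.21 and 0.22 in the authors' values. At 6 h, H2AC18 was −0.11 with library size only and −0.0058 without the snRNA-highest libraries, H2BC5 was 0.0299 and 0.0355 in the authors' values, and H3C14 and H3C15 were 0.0416 and 0.0611 there. At 24 h against control, H3C6 was 0.0482 with library size only and 0.27 and 0.44 in the authors' values, where H2BC12 was 0.33 and 0.34 and H4C14 was 0.25 and 0.26. At 24 h against 6 h, H2AC12 was 0.0905 with library size only, 0.55 without the snRNA-highest libraries and 0.0326 and 0.15 in the authors' values, where H2BC12, the only one of these that had been called, was 0.0071 and 0.0074. With single libraries left out, ranges at 24 h against 6 h were −0.57 to 0.76 for H2AC12, −0.0196 to 0.74 for H2AC13, −0.019 to 0.30 for H2AC18, −0.0705 to 0.41 for H2BC7, −0.0048 to 0.38 for H3C10, −0.025 to 0.37 for H4C1, −0.13 to 0.10 for H1-2 and −0.82 to 0.52 for H4C2. They were −0.0611 to 0.0184 for H1-2, −0.0949 to 0.38 for H3C12, −0.23 to 0.12 for H3C6, −0.31 to 0.11 for H4C14 and −0.25 to 0.42 for H4C15 at 24 h against control, and −0.11 to 0.12 for H1-2, −0.11 to 0.15 for H2AC18 and −0.30 to 0.0126 for H3C14 and H3C15 at 6 h.

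Deviations of same-numbered libraries correlated at −0.059 to 0.021, so the numbers were not taken to pair them. With the replicate block, members higher and lower numbered 1 and 3 at 6 h, 3 and 11 at 24 h against control, and 2 and 3 at 24 h against 6 h, and H2AC13 at 6 h and H3C12 at 24 h against 6 h lost their calls.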
